A study of Mus musculus with 2 samples.

Results

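The transport of salt, calcium and magnesium in the distal nephron was followed through 10 genes, Slc12a1, Umod, Slc12a3, Pvalb, Wnk4, Klhl3, Trpm6, Trpv5, Calb1 and Slc8a1, out of 32285 genes counted. The 10 were chosen by name as genes of this transport, at a time when earlier results of these data were known. They were read in 3 classes of cells, thick ascending limb-like cells (defining gene Slc12a1), distal convoluted tubule-like cells (Slc12a3) and principal or connecting tubule-like cells of the collecting system (Aqp2).

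In the thick ascending limb the cotransporter NKCC2, made from Slc12a1, takes up sodium, potassium and chloride from the urine, and the same cells secrete uromodulin, made from Umod, the most abundant protein of normal urine. In the distal convoluted tubule the thiazide-sensitive cotransporter NCC, made from Slc12a3, takes up sodium and chloride under the control of the kinase WNK4, whose amount is set by the ubiquitin ligase adaptor KLHL3. The early part of that tubule carries parvalbumin and the magnesium channel TRPM6, while its late part and the connecting tubule carry the calcium route, in which the channel TRPV5 lets calcium in, calbindin-D28k (Calb1) carries it across the cell and the sodium-calcium exchanger NCX1 (Slc8a1) releases it.

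Single-cell RNA was measured in 2 libraries from injured mouse kidneys, 1 library per group. In both, the kidney was injured by clamping the renal artery on one side, 4 tamoxifen injections followed, and tissue was taken on day 14 after injury. The haplodeficient library came from Cdh5-CreERT2; Phd3f/+ mice, in which a tamoxifen-dependent Cre driven by the endothelial Cdh5 promoter can remove 1 of the 2 copies of Phd3 (gene symbol Egln3), an oxygen-sensing prolyl hydroxylase, from endothelial cells. The control library came from Cre- mice, for which the labels do not say whether they carried the floxed allele. The labels give neither the number of animals behind a library nor their age or sex. Both libraries are of batch 1.

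With 1 library per group there is no replicate and no test between the groups. Every difference below is between these 2 libraries, and intervals are exact 95% Poisson or binomial intervals that cover counting error only, not the spread between cells or animals. Levels are CPM, the unique molecular identifiers (UMIs, each a counted RNA molecule) of a gene per 1000000 UMIs of a class in a library, and since 3′-end counts carry no term for transcript length they are compared within a gene and not between genes. Log2 ratios are haplodeficient over control after 5 CPM was added to each. A gene was compared where its mean was at least 50 CPM and it had at least 30 UMIs over both libraries, and it was counted as past the fold where the log2 ratio was at least 1 in size and the intervals were apart.

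The control library gave 8737 cells of a median of 8762 UMIs and the haplodeficient library 9222 cells of a median of 5471.5 UMIs, with 28 cell barcodes found in both before likely doublets were removed. The thick limb-like class held 878 control and 905 haplodeficient cells, the distal convoluted-like class 510 and 326, and the principal or connecting-like class 523 and 660. The median share of mitochondrial UMIs was higher in the control library in all 3 classes, at 14.5% against 4.91%, 13.3% against 5.73%, and 10.2% against 6.08%, and 2 alternatives below bear on it, a limit of 25% and levels over UMIs of nuclear genes only. Egln3 had 44 UMIs in control and 98 in haplodeficient endothelial-like cells, 25.1 CPM (18.2 to 33.7) and 23.3 CPM (18.9 to 28.4), so the libraries did not differ in it beyond counting error. Whether its 3′ reads lie in the part that Cre removes is not given, so this is no check of the deletion. In the 3 distal classes Egln3 was at 0.274 to 9.25 CPM.

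The classes were built from clusters in which the 10 genes took no part. Of the thick limb markers, 8 and 7 were met in its 2 clusters, one led by Slc12a1, Egf and Umod and a shallower one led by Eprn, Cldn19 and Slc12a1. The distal convoluted-like class was 1 cluster led by Slc12a3, Abca13 and Pvalb, which met 6 markers of its own and 3 of the principal or connecting list. The principal or connecting-like class joined a small cluster led by Aldh1a3, Aqp2 and Aqp4 (134 and 43 cells) and a large one led by Sprr2f, S100a14 and Spink8 (389 and 617 cells). In that large cluster Aqp2, the water channel that defines principal cells, was low and uneven, at 608 CPM in control and 101 CPM in haplodeficient cells. The 2 further clusters with distal genes stayed unnamed and outside the classes, one led by Mmp7 with thick limb genes (221 and 258 cells) and one led by Slc26a4 with genes of both intercalated and principal cells (285 and 233 cells).

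Among 15 classes of at least 30 cells, each gene had its highest level, as the mean of both libraries, in one of the 3 distal classes. The unnamed clusters were left out of this order. That Slc12a1 and Slc12a3 were highest in the classes they define is how the classes were named and is not a result. Slc12a1 (ENSMUSG00000027202, chr2:125152505-125230002 in GRCm38) stood at 5992 CPM in control and 5565 CPM in haplodeficient thick limb-like cells and next at 159 and 63.3 CPM in a class of 1 cluster led by Tnc, Tagln and Cdh11, which met 4 podocyte and 4 pericyte or smooth muscle markers and is given no cell type name here. Slc12a3 (ENSMUSG00000031766, chr8:94329201-94366214) stood at 2608 and 906 CPM in distal convoluted-like cells, and the thick limb-like class came next with 45.2 and 8.93 CPM. Each salt cotransporter had nearly all its UMIs in one class, with 90.8% and 92.5% of the Slc12a1 UMIs of all cells in thick limb-like cells and 92.8% and 90.0% of those of Slc12a3 in distal convoluted-like cells.

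**Figure D1:**
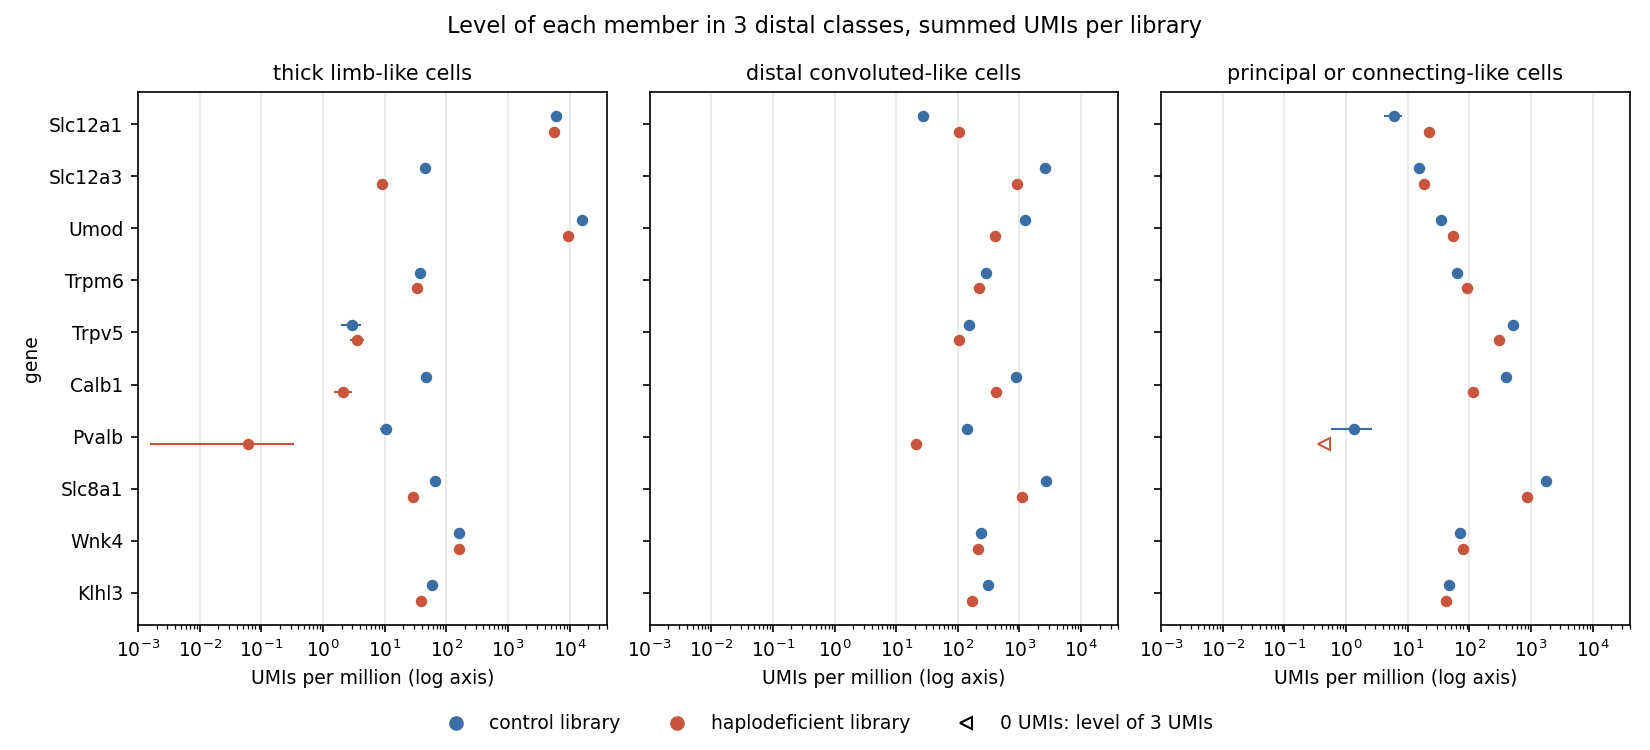
Level of each of the 10 genes (vertical axis) in CPM, on a log axis, in the 3 distal classes, with the control library in blue and the haplodeficient library in red. Bars are 95% Poisson intervals and the open triangle marks Pvalb at 0 UMIs, drawn at the level of 3 UMIs. In the distal convoluted-like panel 9 of 10 red points lie left of the blue ones.

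Umod (ENSMUSG00000030963, chr7:119462711-119479282) was at 15969 CPM in control and 9295 CPM in haplodeficient thick limb-like cells. It followed in distal convoluted-like cells at 1211 and 407 CPM. Umod was also plentiful in free RNA, the RNA outside cells, at 1403 and 1182 CPM in barcodes of at most 100 UMIs, so Umod values in other classes can hold free RNA, and its expected share is given where it was computed. Pvalb (ENSMUSG00000005716, chr15:78191114-78206400), which makes the calcium-binding protein parvalbumin, was found almost only in distal convoluted-like cells, at 141 and 21.3 CPM.

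Wnk4 (ENSMUSG00000035112, chr11:101260567-101277409) was spread more widely. Its level was 240 and 210 CPM in distal convoluted-like cells, 160 and 161 CPM in thick limb-like cells and 69.4 and 77.5 CPM in principal or connecting-like cells, and each step in that order lay beyond counting error in both libraries. Klhl3 (ENSMUSG00000014164, chr13:58000228-58113592) was also highest in distal convoluted-like cells, at 303 and 167 CPM. Below that the order of Klhl3 was not settled, with 58.9 and 39.2 CPM in thick limb-like cells and 47.1 and 41.8 CPM in principal or connecting-like cells.

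Trpm6 (ENSMUSG00000024727, chr19:18749983-18892511) was at 290 and 220 CPM in distal convoluted-like cells, followed by 154 and 95.5 CPM in the Tnc-led class. It was at 168 and 118 CPM in the unnamed Mmp7-led cluster, against 37.6 and 33.0 CPM in the thick limb-like class whose genes that cluster shares. Trpv5 (ENSMUSG00000036899, chr6:41652173-41680769) was the only member highest in principal or connecting-like cells, at 512 and 303 CPM. Among the classes, Trpv5 then stepped down beyond counting error in both libraries to 154 and 103 CPM in distal convoluted-like and 75.1 and 27.2 CPM in intercalated-like cells. The unnamed Slc26a4-led cluster, outside this order, had Trpv5 at 428 and 391 CPM, in the haplodeficient library above the principal or connecting-like class. Unnamed cells held 45.1% of the control and 54.8% of the haplodeficient Trpv5 UMIs.

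Calb1 (ENSMUSG00000028222, chr4:15881264-15908064) was at 875 and 423 CPM in distal convoluted-like cells and 400 and 116 CPM in principal or connecting-like cells, and 29.7 and 22.5 CPM in intercalated-like cells. Slc8a1 (ENSMUSG00000054640, chr17:81373105-81738377) was the member least bound to the nephron. It stood at 2682 and 1097 CPM in distal convoluted-like cells and 1753 and 862 CPM in principal or connecting-like cells, but also at 1312 and 1092 CPM in monocyte-like cells and 1363 and 1020 CPM in pericyte or smooth muscle-like cells. In the haplodeficient library the distal convoluted-like and monocyte-like levels of Slc8a1 did not differ beyond counting error.

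The likeness of patterns was described by Pearson's r of log levels over 30 values, 15 classes in each of 2 libraries. These values share libraries and depth, so no test is given. Slc12a3 and Pvalb were the closest pair of members (r = 0.92), followed by Trpv5 with Calb1 (0.91) and Wnk4 with Klhl3 (0.90). Slc12a1 went with Umod at r = 0.80. Over all genes, the most alike were Gm17225 for Slc12a1 (0.92), Gm32857 for Slc12a3 (0.95) and for Pvalb the member Slc12a3 itself. Stk32b was most like Umod (0.89), Ppp2r2b most like Trpm6 (0.93) and Ptgfr most like Calb1 (0.97). For Trpv5 it was Scnn1g (0.99), a subunit of the epithelial sodium channel. For Wnk4 it was Myo19 (0.95), for Klhl3 it was Akr1c19 (0.91), and Slc8a1 had no gene above Sowahc at 0.79.

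Upstream sequences are shown for the closest pair, Slc12a3 and Pvalb, and for Umod, which was highest in the thick limb-like class. RefSeq windows of 250 bases before to 50 after the gene start (GRCm38.p6) were found for 9 of the 10 members, all but Calb1. The 250 bases before each start follow, 5′ to 3′, with motif matches in capitals.
Slc12a3, chr8:94328958-94329207, plus strand: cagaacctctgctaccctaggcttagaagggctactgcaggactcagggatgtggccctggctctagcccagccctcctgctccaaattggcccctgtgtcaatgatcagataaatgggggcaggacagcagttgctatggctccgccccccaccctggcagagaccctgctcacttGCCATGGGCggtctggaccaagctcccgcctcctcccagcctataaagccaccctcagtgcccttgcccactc
Pvalb, chr15:78206401-78206650, minus strand: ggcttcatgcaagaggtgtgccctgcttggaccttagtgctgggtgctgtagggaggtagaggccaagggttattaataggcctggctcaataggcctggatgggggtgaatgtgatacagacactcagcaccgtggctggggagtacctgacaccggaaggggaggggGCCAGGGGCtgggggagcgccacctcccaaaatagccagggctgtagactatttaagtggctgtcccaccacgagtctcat
Umod, chr7:119479263-119479512, minus strand: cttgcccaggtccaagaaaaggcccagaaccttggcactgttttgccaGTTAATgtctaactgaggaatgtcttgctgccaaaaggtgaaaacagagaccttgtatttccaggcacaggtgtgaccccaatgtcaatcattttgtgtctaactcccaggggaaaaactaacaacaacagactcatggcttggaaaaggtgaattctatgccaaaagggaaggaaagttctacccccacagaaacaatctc
The capitals mark the TFAP2 motif GCCNNNGGC in Slc12a3 (GCCATGGGC, 73 to 65 bases before the start) and Pvalb (GCCAGGGGC, 81 to 73 bases before it), and the HNF1 half-site GTTAAT in Umod (202 to 197 bases before it). The 3 motifs were searched on both strands, without a list fixed for this purpose. GCCNNNGGC was in 5 of 9 member windows (Slc12a3, Pvalb, Trpm6, Wnk4 and, after the start, Umod) and in 16.6% of all 32851 windows. GTTAAT was in 1 of 9 and in 7.10% of all. The estrogen-related receptor motif AAGGTCA was in 0 of 9 and in 4.72% of all. The share over all windows was not matched for G and C content, which raises matches to GCCNNNGGC. That content was 47.3% (Umod) to 70.7% (Wnk4) in the member windows with this motif. It was 42.7% (Slc12a1) to 52.3% (Klhl3) in those without it. No excess of the motif is therefore read from these shares. A match describes letters and shows no binding.

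In thick limb-like cells the salt cotransporter itself was nearly level between the libraries, and Umod was lower in the haplodeficient library without passing the fold. Of 3509 genes compared, 1.88% were past the fold, and the members past it were 0 of the 3 that could be compared. Slc12a1 was at 5992 and 5565 CPM. Their ratio was 0.929 (0.919 to 0.938), which is -0.11 as a log2 ratio. Umod was at 15969 and 9295 CPM. Their ratio was 0.582 (0.578 to 0.586), which is -0.78 as a log2 ratio. Wnk4 was at 160 and 161 CPM, at the ratio 1.01 (0.946 to 1.07). The median log2 ratio of all compared genes was 0.14, so Umod lay further below the other genes than its own ratio states.

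The other members were too low in thick limb-like cells to be compared by this rule. Calb1 had 524 control and 35 haplodeficient UMIs there, Slc12a3 496 and 146, Slc8a1 716 and 475, and Pvalb 114 and 1. These UMIs sat in few cells, with 92.0% of the control Calb1 and 67.9% of the control Slc12a3 UMIs in the 10 highest cells. Genes of the distal convoluted tubule in these cells are therefore not read as a feature of the thick limb.

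Umod followed a subdivision of the thick limb-like cells. Clustered again with the unnamed Mmp7-led cluster and again without the members, the cells split into 13 subclusters. One led by Lpl and Egf held 297 control but only 16 haplodeficient cells, at a median of 23.5% mitochondrial UMIs, and had the highest Umod, 24847 and 20521 CPM. It carried 59.6% of the control and 4.08% of the haplodeficient Umod UMIs of the class. Egf, one of its leading genes, itself differed between the libraries, as given below. The cell numbers therefore show where the Umod UMIs lie and are no result about cell types, and their cause was not tested. Umod was about level in the subcluster led by Foxq1 and Car15, at 11893 and 12005 CPM in 110 and 207 cells. It was lower in other large subclusters, at 9301 and 6364 CPM in the AY036118-led one (152 and 306 cells), at 9385 and 6979 CPM in the Frmpd4-led one (63 and 241 cells) and at 4828 and 2172 CPM in the Mmp7-led one (182 and 155 cells, most of them outside the class). A small subcluster led by Robo2, Ndst4 and Nos1, the neuronal nitric oxide synthase of the macula densa, kept Slc12a1 at 4433 and 3367 CPM but had Umod at only 1126 and 1453 CPM (23 and 27 cells). Without the Lpl-led subcluster, the Umod log2 ratio of the class was -0.20 and that of Slc12a1 was 0.08. The unnamed Mmp7-led cluster as a whole had Slc12a1 at 987 and 1221 CPM and Umod at 4365 and 3051 CPM, with the channel gene Trpm6 higher than in the thick limb-like class, as above.

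The distal convoluted-like cells held the widest differences. All 10 members could be compared, and 5 were past the fold towards lower values and 1 towards higher, where 0.943% and 0.8% of 3501 compared genes were (1.74% in either direction). The median log2 ratio was -0.94 over the members and 0.11 over all compared genes. Lower in the haplodeficient library were the cotransporter gene Slc12a3, Pvalb, Umod, and Slc8a1 and Calb1 of the calcium route, while Wnk4, Trpm6, Trpv5 and Klhl3 were lower without passing the fold.

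Slc12a3 was at 2608 CPM (2573 to 2644) in control and 906 CPM (882 to 930) in haplodeficient cells, a ratio of 0.347 (0.337 to 0.358) and a log2 ratio of -1.52. It also reached fewer cells. With each cell thinned to 2000 UMIs, 74.9% (70.9 to 78.7) of 495 control and 55.1% (49.5 to 60.7) of 321 haplodeficient cells had a Slc12a3 UMI, against 87.1% and 77.6% without thinning. In macrophage-like cells, which do not make NCC, the thinned shares were 0.737% and 0.444%. The distal convoluted-like class was named by Slc12a3, so shares above these are how it was built and not a result. Median depths were 12290.5 and 11227 UMIs in distal convoluted-like and 4713 and 5369 in macrophage-like cells.

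Pvalb had the lowest ratio of the 10, with 141 CPM (1123 UMIs) in control and 21.3 CPM (125 UMIs) in haplodeficient cells, a ratio of 0.151 (0.124 to 0.182) and a log2 ratio of -2.48. All 125 haplodeficient UMIs were in the 10 highest cells, so few cells carry this value. The thinned share of cells with Pvalb was 17.6% and 1.25%. Wnk4 was at 240 and 210 CPM, a log2 ratio of -0.19. Klhl3 was at 303 and 167 CPM. Their ratio was 0.552 (0.512 to 0.595), which is -0.84 as a log2 ratio, just short of the fold. Of Slc12a3, Klhl3 and Wnk4, Slc12a3 thus differed most and Wnk4 least in these sums over the class. Wnk1, of the same kinase family as Wnk4, was past the fold, as given below.

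Among the calcium and magnesium genes, Slc8a1 was at 2682 and 1097 CPM. Their ratio was 0.409 (0.398 to 0.421), which is -1.29 as a log2 ratio. Calb1 was at 875 and 423 CPM, at the ratio 0.484 (0.462 to 0.507), which at a log2 ratio of -1.04 is the narrowest pass. The 10 highest cells held 36.7% of the control and 85.0% of the haplodeficient Calb1 UMIs. For Slc8a1 these shares were 35.1% and 58.2%. Trpv5, the channel at the start of the route, was at 154 and 103 CPM with a log2 ratio of -0.56. Trpm6 was at 290 and 220 CPM with a log2 ratio of -0.39. In these sums both channels were short of the fold. The Calb1 value depends on a pair of subclusters, and the Trpv5 ratio varied between subclusters, as described below.

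The thick limb genes in this class need care. Umod was at 1211 and 407 CPM. Their ratio was 0.336 (0.321 to 0.351), which is -1.56 as a log2 ratio, with expected free RNA at 8.62% and 13.8% of its UMIs. The 10 highest cells held 23.9% of the control and 55.7% of the haplodeficient Umod UMIs. Slc12a1 was the 1 member past the fold upwards, at 27.3 and 105 CPM with a log2 ratio of 1.77. In control cells, expected free RNA came to 105% of its 217 UMIs, so no expression is read there. Of the 618 haplodeficient UMIs, 591 were in 10 cells, and thinned shares of cells with Slc12a1 were 2.63% and 3.74%, against 1.47% and 1.69% in macrophage-like cells. With the class taken from the defining gene alone its log2 ratio was -0.89. That setting keeps cells in which Slc12a3 UMIs outweigh those of Slc12a1 and Aqp2, so it leaves out cells rich in Slc12a1. The lower value there is partly set by this choice and is no independent check. No direction is given for Slc12a1 here.

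**Figure D2:**
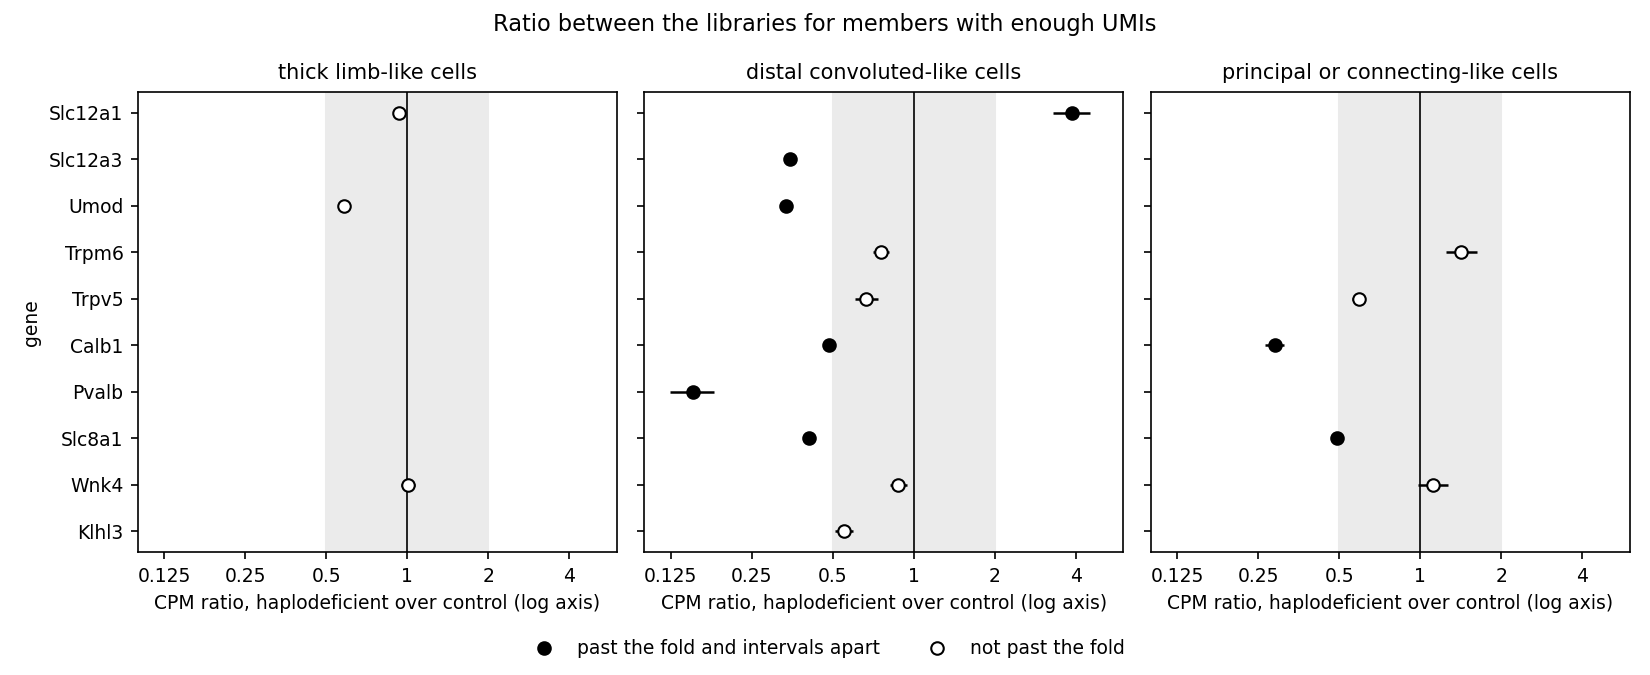
CPM ratio of haplodeficient over control on a log axis for each member that could be compared, by class, with 95% binomial intervals. Filled points are past the fold and the grey band spans ratios of 0.5 to 2. The distal convoluted-like panel has 5 filled points on the left and Slc12a1 alone on the right, and the thick limb-like panel has none.

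The distal convoluted-like and principal or connecting-like cells were clustered again together, without the members, into 11 subclusters, which separated early from late genes. A subcluster led by Egf, Lpl and Abca13 had the highest Slc12a3 (6258 CPM in control), Pvalb (599 CPM) and Umod (2631 CPM) with little Trpv5 (15.1 CPM). A subcluster led by S100g, Egfem1 and Kl had the highest Calb1 (3764 CPM), Slc8a1 (9684 CPM) and Trpv5 (909 CPM) and kept Slc12a3 at 1339.6 CPM. The largest, led by Ccnd2, Nrxn3 and Gm32857, had Slc12a3 at 1410.5 CPM but almost no Pvalb (8.61 CPM) and little Calb1 (37.8 CPM).

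The Egf-led subcluster held 129 control and 6 haplodeficient cells at a median of 23.3% mitochondrial UMIs, and the S100g-led one 148 and 12 cells at 20.8%. Together they had 38.0% of the control and 4.60% of the haplodeficient cells of the distal convoluted-like class, and 94.8% of the control Pvalb, 91.4% of the Calb1, 68.8% of the Slc8a1 and 60.3% of the Slc12a3 UMIs. Genes that lead them, such as Egf and S100g, themselves differed between the libraries, so these cell numbers show where the members' UMIs lie and are no result about cell types. Whether cell damage, dissociation or the tissue set the numbers was not tested.

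Within the subclusters the members divided. In the Ccnd2-led subcluster, with 203 and 173 cells at 6.0% mitochondrial UMIs, Slc12a3 was at 1410.5 and 761 CPM, Umod at 1055 and 378 CPM and Slc8a1 at 697 and 332 CPM, while Calb1 was at 37.8 and 29.7 CPM and Wnk4 at 182 and 205 CPM. In the Klk1-led subcluster (68 and 87 cells) Slc12a3 was at 315 and 102 CPM and Slc8a1 at 3280 and 1806 CPM, but Calb1 was at 240 and 315 CPM. Trpv5 was at 87.3 and 34.8 CPM in the Ccnd2-led subcluster, a ratio of 0.398 (0.327 to 0.483). In the Klk1-led one it was at 637 and 539 CPM. Slc12a3, Slc8a1 and Trpv5 were thus lower in the haplodeficient cells of these 2 subclusters. Calb1 was slightly lower in one and higher in the other. The few haplodeficient cells of the S100g-led subcluster were above the control cells, with Slc12a3 at 1339.6 CPM in control and 2979 CPM in haplodeficient cells, Calb1 at 3764 and 11965 CPM and Slc8a1 at 9684 and 20628 CPM. In the Egf-led subcluster Slc12a3 was at 6258 and 7266 CPM, also higher in the haplodeficient cells.

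**Figure D3:**
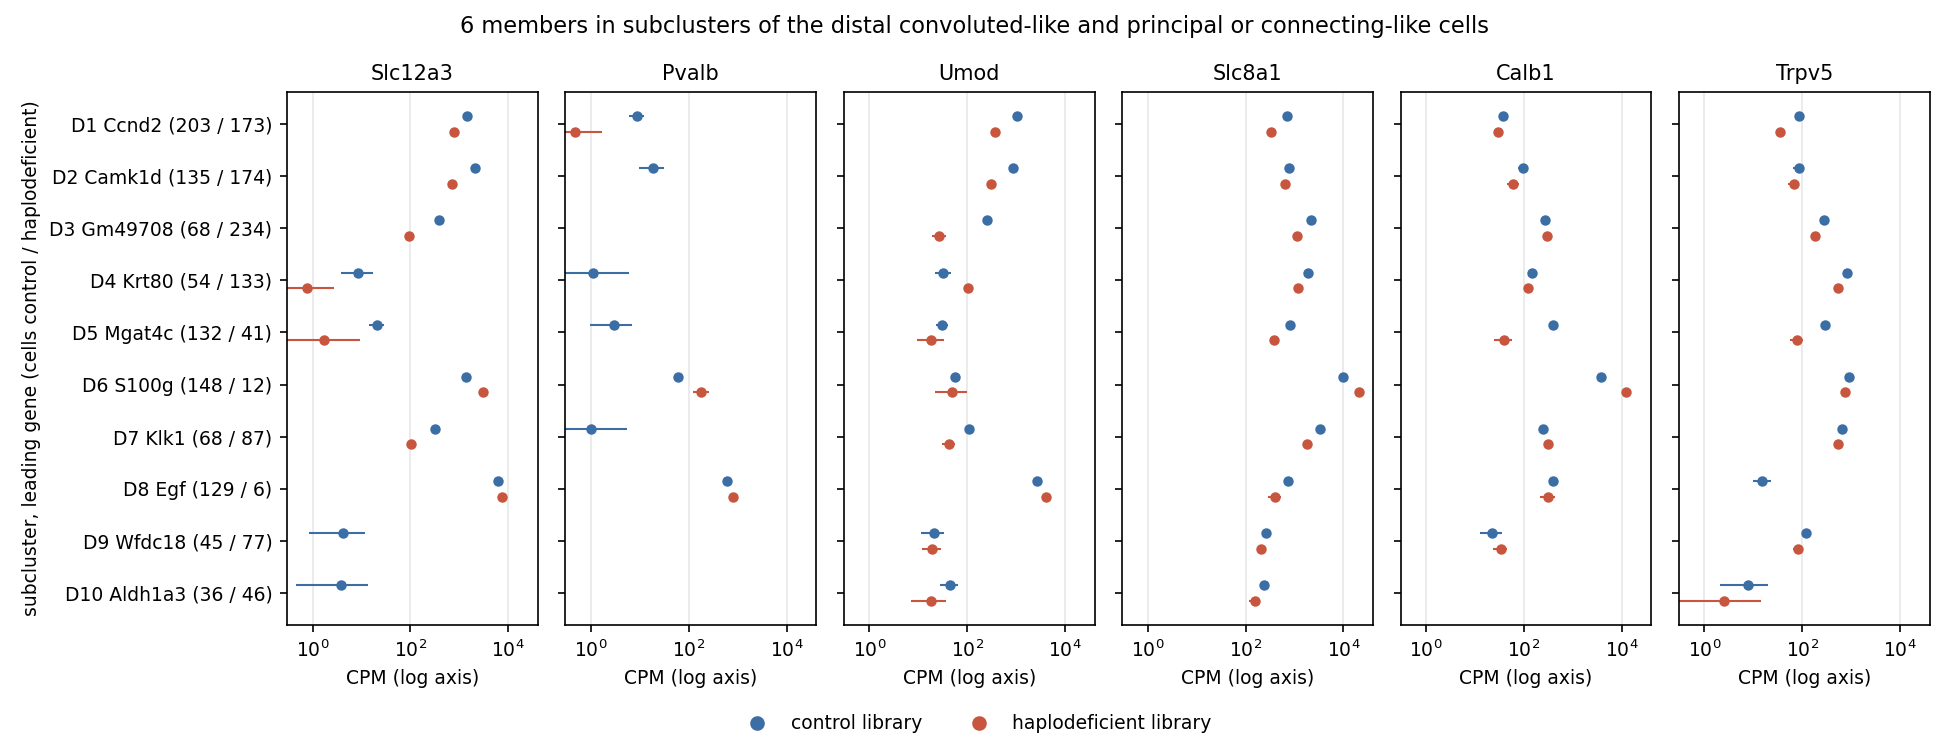
Level of 6 members in CPM, on a log axis, in 10 subclusters of the distal convoluted-like and principal or connecting-like cells, control in blue and haplodeficient in red, with 95% Poisson intervals and no point at 0 UMIs. Labels give the leading gene and the cells in each library. Pvalb is high in the Egf-led and S100g-led rows alone, and the red points there rest on 6 and 12 cells.

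The calls of the distal convoluted-like class therefore depend on those 2 subclusters to different degrees. Without them, the log2 ratios of Slc12a3 (-1.08), Umod (-1.51) and Slc8a1 (-1.09) stayed past the fold downwards, Pvalb (-1.54) was too low to be compared, and Calb1 was at 0.033. With every subcluster weighted alike in both libraries, which gives the 15 haplodeficient cells of the class in these subclusters a large weight, no member was past the fold downwards, with Slc12a3 at -0.17, Slc8a1 at -0.08, Umod at -0.32, Calb1 at 0.81 and Pvalb at 0.67. With cells of at most 25% mitochondrial UMIs, Slc12a3 (-1.35), Umod (-1.54) and Pvalb (-1.93) were past the fold and Calb1 (-0.47) and Slc8a1 (-0.89) were not. With cells thinned to 2000 UMIs, Calb1 and Slc8a1 were each at -0.96.

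**Figure D4:**
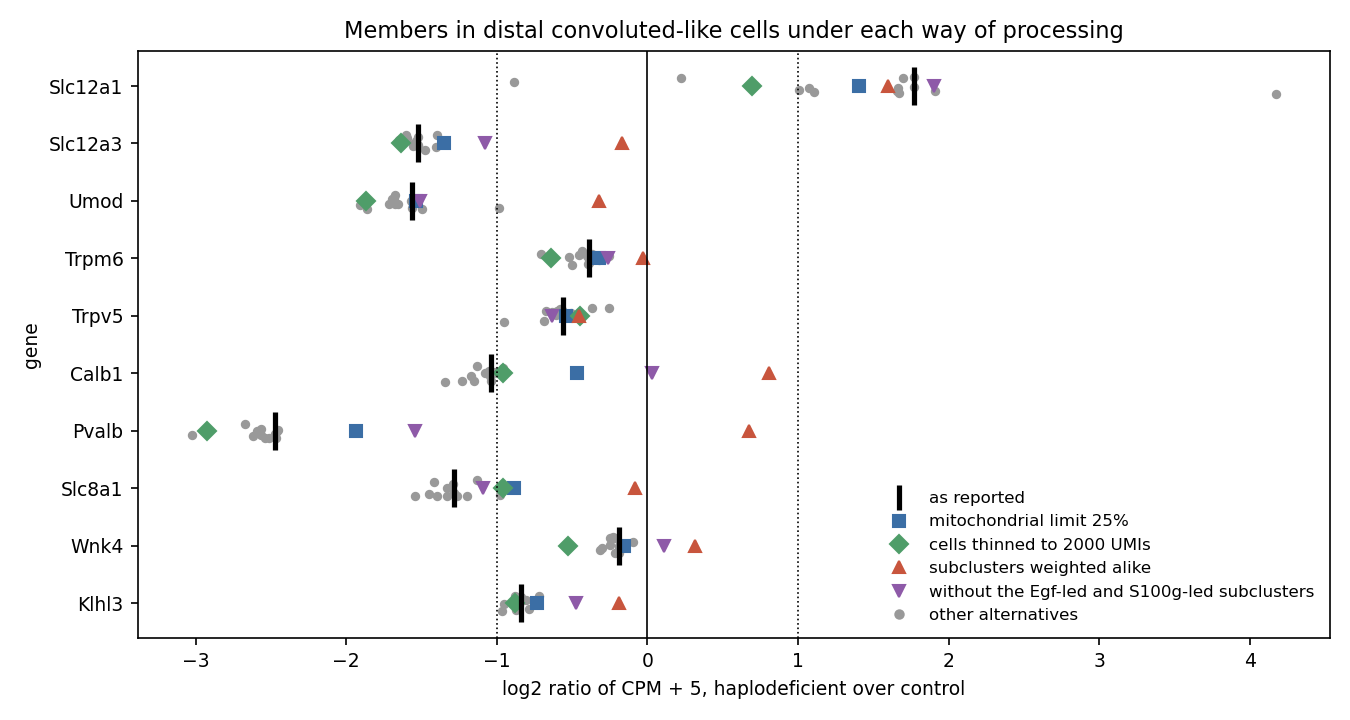
Log2 ratio of each member in distal convoluted-like cells as reported (black bar) and under 17 other ways of processing (symbols), with dotted lines at -1 and 1. Slc12a3 and Umod stay left of 0 in all of them, and Calb1 and Pvalb cross 0 when subclusters are weighted alike.

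Summed over principal or connecting-like cells, the calcium genes were lower in the haplodeficient library and the magnesium channel was not. This was not particular to calcium, as the sodium channel and aldosterone genes given below were lower too. Of 3720 genes compared, 2.28% were past the fold, and of the 5 members that could be compared 2 were, both lower, as were 1.45% of all compared genes. Calb1 was at 400 and 116 CPM. Their ratio was 0.289 (0.266 to 0.313), which is -1.75 as a log2 ratio. Slc8a1 was at 1753 and 862 CPM. Their ratio was 0.492 (0.476 to 0.508), which is -1.02 as a log2 ratio. Trpv5 was at 512 and 303 CPM. Their ratio was 0.592 (0.560 to 0.626), which is -0.75 as a log2 ratio, short of the fold. Trpm6 was at 63.4 and 90.2 CPM with a log2 ratio of 0.48, and Wnk4 at 69.4 and 77.5 CPM with a log2 ratio of 0.15. Within the clusters of the class, Trpm6 was at 84.1 and 94.7 CPM (Sprr2f-led) and at 20.4 and 17.2 CPM (Aldh1a3-led). Neither of these differences was beyond counting error. Over 17 alternatives the Trpm6 log2 ratio ran from -1.05 to 0.91 and was above 0 in 13. Neither call was kept with the class taken from the defining gene alone (Calb1 -0.68 and Slc8a1 -0.46 as log2 ratios) or at a clustering resolution of 2 (-0.17 and -0.24).

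The class is not one kind of cell, and its makeup bears on these values. In the Sprr2f-led cluster Calb1 was at 424 and 121 CPM, Slc8a1 at 2224 and 899 CPM and Trpv5 at 631 and 319 CPM. In the Aldh1a3-led cluster, where Aqp2 was at 3093 and 1978 CPM, they were at 351 and 29.5 CPM, 772 and 261 CPM, and 263 and 49.2 CPM. All 3 calcium genes were lower in both clusters. They differed less in the unnamed Slc26a4-led cluster outside the class, where Aqp2 was at 895 and 110 CPM. In that cluster Calb1 was at 225 and 130 CPM, Slc8a1 at 1511 and 1100 CPM and Trpv5 at 428 and 391 CPM. The S100g-led subcluster gave 58.9% of the class's control Calb1 UMIs and 13.3% of the haplodeficient ones, and with subclusters weighted alike Calb1 was at 0.37 and Slc8a1 at -0.62. The salt cotransporters, Umod, Pvalb and Klhl3 were too low here to be compared, and expected free RNA was above the counted UMIs of both Slc12a1 and Umod in both libraries.

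Outside the distal classes, 2 members were past the fold in intercalated-like cells, where 2.48% of 3662 compared genes were, and both were lower, as were 0.928% of genes. There Trpv5 was at 75.1 and 27.2 CPM and Slc8a1 at 225 and 105 CPM. Slc8a1 was at 1312 and 1092 CPM in monocyte-like cells, at 468 and 267 CPM in macrophage-like cells, at 272 and 157 CPM in endothelial-like cells and at 397 and 176 CPM in dendritic-like cells. Slc8a1 was thus lower in the haplodeficient library in each of these immune and vascular classes as well as in the distal ones, while in fibroblast-like cells it was at 231 and 281 CPM. Of these only the dendritic-like value was past the fold, in a class of 55 cells per library where 4.78% of compared genes were.

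The thick limb genes were also past the fold in 4 classes outside the distal ones, each time lower in the haplodeficient library. Umod was at 483 and 236 CPM in descending thin limb-like cells, where 1.21% of compared genes passed and expected free RNA came to 19.9% and 27.5% of its UMIs. It was at 115 and 31.1 CPM in neutrophil-like cells, where 4.84% passed. In the Tnc-led class, where 0.742% passed, Umod was at 314 and 79.4 CPM and Slc12a1 at 159 and 63.3 CPM. In pericyte or smooth muscle-like cells, where 1.04% passed, Umod was at 404 and 184 CPM and Slc12a1 at 96.1 and 39.9 CPM. The share of free RNA in the last 3 classes was not computed, so whether these cells make either gene was not tested.

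The other genes of the same transport were read from 6 lists of 42 genes chosen with earlier results of these data known. In distal convoluted-like cells 27 of them could be compared and 4 were past the fold, all lower, against 0.943% of all compared genes. Their median log2 ratio was -0.29 over the 38 above 5 CPM, and that of all compared genes was 0.11. These were Egf (281 and 39.8 CPM), which acts on magnesium uptake, Kl (369 and 127 CPM), the gene of Klotho, S100g (6532 and 2291 CPM), the gene of the calcium carrier calbindin-D9k, and Wnk1 (1178 and 441 CPM), of the same kinase family as Wnk4. The sodium channel and aldosterone list, from Nr3c2 to Scnn1g, had 0 of 6 compared genes past the fold and a median of -0.12. Atp1b1 (3627 and 2265 CPM) and Fxyd2 (5811 and 5486 CPM) were not past it either.

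In thick limb-like cells 2 of 29 compared pathway genes were past the fold, against 1.88% of all compared genes. They were Slc9a3 (264 and 68.9 CPM), the sodium-proton exchanger NHE3, and Egf (1669 and 414 CPM), and the median log2 ratio was -0.09 against 0.14 over all compared genes. In principal or connecting-like cells 2 of 24 were, against 2.28% of all. They were Kl (224 and 72.3 CPM) and S100g (6068 and 1766 CPM), and the median was -0.56 against -0.0017 over all compared genes. The sodium channel and aldosterone list had 0 of 6 compared genes past the fold in that class. All 7 of its genes were lower, with a median of -0.82 and sums of 3868 and 2279 CPM. S100g and Kl are leading genes of the S100g-led subcluster of 148 control and 12 haplodeficient cells. S100g and Calb1, both buffers of the calcium route, were lower as sums over both classes, but with subclusters weighted alike Calb1 was higher in the haplodeficient library, at a log2 ratio of 0.81 in distal convoluted-like and 0.37 in principal or connecting-like cells.

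Marker levels of other states and cells moved beside these results, and their part in them was not tested. In distal convoluted-like cells the summed level of 8 tubular injury genes was 22383 and 30173 CPM, with 6 of the 7 above 5 CPM higher in the haplodeficient library and Lcn2 (1778 and 3618 CPM) past the fold. The summed level of 11 dissociation stress genes was 9270 and 11894 CPM, with none past the fold. Of the marker lists of other cell types in that class, the sums that were lower in the haplodeficient library included those of the thick limb, at 415 and 324 CPM, and of the proximal tubule, at 72.8 and 6.32 CPM. Those that were higher included the descending thin limb, at 90.1 and 292 CPM, the monocyte, at 45.9 and 117 CPM, and the plasmacytoid dendritic list, at 177 and 245 CPM, each with 1 gene past the fold, as well as the principal or connecting list, at 822 and 945 CPM, and the endothelial list, at 42.5 and 72.9 CPM. In thick limb-like cells the injury sum was 16068 and 22456 CPM and the stress sum 8440 and 13084 CPM. In principal or connecting-like cells they were 18430 and 27192 CPM, and 10235 and 10086 CPM.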

How the data were processed

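The data were 3′-end single-cell counts from 2 libraries, 1 per group. The authors deposited raw UMI counts for each gene in each barcode. Per the file headers they come from Cell Ranger version 4, and per the submitters' processing notes from mm10; the annotation was not given in the sources used here. Of 32285 gene identifiers, 32235 (99.8%) were found in GENCODE release M21, the source of the gene coordinates. The libraries held 134190236 (control) and 114668145 (haplodeficient) UMIs.

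Barcodes were kept from 500 UMIs and 200 genes upwards if mitochondrial UMIs did not exceed 50%, and the highest Scrublet scores at 0.8% per 1000 cells were removed as doublets. Cells of both libraries were clustered together (scanpy 1.11.5, leidenalg 0.10.2) on 2000 variable genes, 30 components and 15 neighbours at resolution 1, with the 10 members and mitochondrial genes left out, giving 40 clusters, of which 9 stayed unnamed. A class needed 3 markers in 10% of cells at 2-fold, with its defining gene among them. This naming rule was set and revised after the clusters were seen: an earlier version left the Sprr2f-led cluster unnamed and named the Mmp7-led one, and both choices are covered by alternatives.

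UMIs were summed per class and library, and the comparison was checked on simulated counts. Free RNA was estimated from barcodes of at most 100 UMIs and marker genes of other classes. Distal cells were clustered again on 20 components at resolution 0.5, the 1 value tried. The rule for named genes took the members, pathway genes past the fold (at most 6 per class), the 3 genes most like each member, of which the first is printed, and Egln3. Atp1b1, Fxyd2 and Lcn2 were named after their values were seen. Members and lists were chosen with earlier results of these data known. Cells are not replicates, so no p-value is given. Cell hashing is mentioned in the labels but no hashtag was used.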

Additional observations from a re-analysis of the deposited data

How the results depend on the processing

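No paired analysis was possible because each group is 1 library and carries no replicate number. The alternatives numbered 17 or 19 per class, of which those on subclusters, on clusters in or out of a class and on clustering each library by itself were chosen after seeing the data. Of the values of single members over all of them, 259 stayed within their counting interval, 230 moved beyond it and 5 changed sign after being past the fold. A lower eligibility limit cannot change a log2 ratio, so the values under it stayed by construction.

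Medians are over the members at a mean of 5 CPM or more in a class, compared or not. In distal convoluted-like cells the count of 6 members past the fold was 3 with cells thinned to 2000 UMIs and 1 with subclusters weighted alike. Their median log2 ratio of -0.94 was -1.06 at resolution 2, -0.64 at the 25% mitochondrial limit, -1.07 with nuclear UMIs only, -1.05 with median-of-ratios scaling, -0.55 without the Egf-led and S100g-led subclusters and -0.056 with subclusters weighted alike. Signs changed for Slc12a1 (-0.89 with the class taken from the defining gene alone), for Calb1 (0.81 with subclusters weighted alike and 0.033 without the 2 subclusters) and for Pvalb (0.67 with subclusters weighted alike). The setting that gave the Slc12a1 value leaves out cells rich in Slc12a1. Slc12a3 ranged from -1.65 to -0.17 and stayed below -1 in 16 of 17 alternatives, and Umod from -1.91 to -0.32, in 15 of 17. Of these alternatives, weighting by cluster could not change this class, which is 1 cluster, and a lower eligibility limit cannot change a log2 ratio. The class from the defining gene alone is chosen by its Slc12a3 UMIs, so the Slc12a3 value under it is no independent check. The counts of 16 and 15 therefore include settings that could not move the ratio.

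In thick limb-like cells the count of 0 was 1 with nuclear UMIs only, with cells thinned, with each library clustered on its own and without the Lpl-led subcluster, and 3 with the mean CPM per cell and with genes eligible from 10 CPM. The median of -0.78 was -0.12 with the members kept in clustering, 0.026 with the defining gene alone, -0.23 at the 25% limit, -0.94 with nuclear UMIs only, -0.92 with median-of-ratios scaling, -0.90 with the mean CPM per cell, -0.96 with cells thinned, -0.80 with free RNA subtracted and -0.13 with each library clustered on its own. Umod stayed below 0 in 19 of 19.

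In principal or connecting-like cells the count of 2 was 0 with the defining gene alone, at resolution 2 and with subclusters weighted alike, 4 with doublets kept, and 1 with the mean CPM per cell, with cells thinned and with each library clustered on its own. The median of 0.15 was -0.66 with the members kept in clustering, -0.21 with the defining gene alone, -0.58 with doublets kept, -1.05 at the 25% limit, -0.93 at 1000 UMIs, -0.33 with cells thinned and -0.61 with only the Aqp2-led cluster. Calb1 changed sign to 0.37 with subclusters weighted alike. The class itself held 134 control and 43 haplodeficient cells with the members kept in clustering and 640 and 583 with doublets kept. It held 304 and 94 at resolution 2, 217 and 47 at the 25% limit and 235 and 53 at 1000 UMIs. With the defining gene alone it held 481 and 156, and with each library clustered on its own 507 and 645. As reported, haplodeficient cells were the more numerous (523 and 660), which held in the last of these alternatives alone. The cause of these moves was not tested. Members under the mean of 50 CPM cannot be called, so low genes that are lower in one library are hidden, and 10 cells often carry most UMIs of a gene.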
